A study of Mus musculus with 4 samples.

Results

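The genes of the vascular endothelial growth factor (VEGF) system were measured in endothelial cells (ECs), which line blood and lymphatic vessels, from 2 tissues of the mouse. The genes were picked by symbol: the receptor tyrosine kinases Kdr (VEGFR2), Flt1 (VEGFR1) and Flt4 (VEGFR3), the co-receptors Nrp1 and Nrp2 (neuropilins), and the ligands Vegfa, Vegfb, Vegfc and Pgf (placental growth factor). All 9 were found, each on 1 of the 23282 lines of every count table, and 8 of them had enough counts to be tested. The question the comparison addresses is how ECs of the dura mater, the outermost of the meninges, differ from ECs of the brain parenchyma in what they express.

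Both groups came from C57BL/6J mice at 8 weeks of age, and the labels give neither group a treatment or a genetic change. Each tissue had 2 libraries of bulk RNA sequencing. Tissue was dissociated enzymatically, erythrocytes were removed by lysis, and CD31+ CD45- TER-119- cells were sorted by fluorescence. Brain ECs alone went through a magnetic enrichment before the sort, so preparation and tissue cannot be told apart. It is not given whether the libraries of a tissue came from separate mice or from pools, so p-values measure only the spread between these libraries, which may be technical.

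VEGF-A signals in ECs mainly through VEGFR2, which drives survival, migration, division and permeability. VEGFR1 binds VEGF-A more tightly but signals weakly, and it is also made as a soluble form that traps ligand, which is why the balance of Flt1 to Kdr is of interest. VEGF-B and placental growth factor bind VEGFR1 and not VEGFR2. VEGF-C acts through VEGFR3, the receptor known from lymphatic growth, and after processing also through VEGFR2. Neuropilins bind both VEGFs and secreted semaphorins and strengthen receptor signalling, with Nrp2 best known from veins and lymphatics. In most tissues the greater part of VEGF-A is made by cells other than ECs.

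The bases upstream of the annotated start sites of 5 genes are shown, those of Kdr and Flt1 because the receptor balance rests on them and those of Nrp1, Nrp2 and Vegfa because their counts differed most between the tissues by the edgeR p. Each is read 5′ to 3′ on the strand of its gene from RefSeq (GRCm38.p6). Kdr is at chr5:75978459-75978705 (minus strand), Flt1 at chr5:147726012-147726261 (minus), Nrp1 at chr8:128358823-128359072 (plus), Nrp2 at chr1:62703067-62703284 (plus) and Vegfa at chr17:46032378-46032627 (minus). Each stretch begins 250 bases before the start site and stops 1 base before it, or 4 bases (Kdr) or 33 bases (Nrp2) before it where an exon of GENCODE M21 reaches into the stretch. The Nrp1 stretch holds no GENCODE exon but lies inside the annotated gene, in the first intron of a transcript that starts further upstream. Capitals mark exact matches, on either strand, to GGGCGG (the GC box), ACGTG or GCGTG (the core bound by hypoxia-inducible factors), CCGGAA (a core of ETS factors), TATAAA (the TATA box) and TGACGTCA (the cyclic AMP response element).
Kdr: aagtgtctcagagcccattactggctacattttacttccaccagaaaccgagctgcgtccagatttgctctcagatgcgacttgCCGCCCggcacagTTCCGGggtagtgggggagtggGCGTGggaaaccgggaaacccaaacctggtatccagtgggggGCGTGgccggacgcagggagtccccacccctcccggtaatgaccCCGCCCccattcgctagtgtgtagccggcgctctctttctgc
Flt1: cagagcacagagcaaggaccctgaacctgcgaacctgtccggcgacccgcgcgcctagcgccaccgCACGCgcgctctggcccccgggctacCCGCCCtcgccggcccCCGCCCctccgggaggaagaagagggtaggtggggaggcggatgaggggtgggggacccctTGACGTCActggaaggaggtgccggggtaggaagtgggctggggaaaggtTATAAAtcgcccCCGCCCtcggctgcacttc
Nrp1: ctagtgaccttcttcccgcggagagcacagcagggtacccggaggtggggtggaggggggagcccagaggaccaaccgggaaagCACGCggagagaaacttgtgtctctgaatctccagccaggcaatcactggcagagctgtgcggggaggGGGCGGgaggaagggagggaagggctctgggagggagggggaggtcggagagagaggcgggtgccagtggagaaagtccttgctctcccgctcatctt
Nrp2: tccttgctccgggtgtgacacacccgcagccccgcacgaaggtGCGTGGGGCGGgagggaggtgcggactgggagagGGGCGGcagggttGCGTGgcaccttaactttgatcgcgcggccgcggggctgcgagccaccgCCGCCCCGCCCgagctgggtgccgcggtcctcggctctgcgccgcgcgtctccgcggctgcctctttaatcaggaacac
Vegfa: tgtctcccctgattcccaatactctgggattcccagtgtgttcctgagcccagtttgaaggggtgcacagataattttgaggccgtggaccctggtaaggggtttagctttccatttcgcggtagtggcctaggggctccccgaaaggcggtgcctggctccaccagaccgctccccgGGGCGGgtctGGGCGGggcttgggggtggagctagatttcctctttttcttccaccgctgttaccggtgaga

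GGGCGG stood in all 5 stretches, 4 times in Nrp2, 3 times in Flt1, 2 times in Kdr and Vegfa and 1 time in Nrp1, and in 32.7% of the 32851 RefSeq windows of 250 bases. In Nrp2 a GGGCGG runs directly on from a GCGTG, and a pair of GGGCGG matches on the other strand overlap each other. GCGTG occurred 2 times in Kdr and Nrp2 and 1 time in Flt1 and Nrp1, against 28.2% of all windows. In windows cut to the 218 bases shown for Nrp2 these shares were 28.2% for GGGCGG and 24.8% for GCGTG. No match to ACGTG, which 16.6% of windows hold, lay in any of the 5. Flt1 alone held TATAAA, 31 bases before the start, and TGACGTCA, 81 bases before it, which 12.4% and 1.55% of windows hold. Kdr alone held CCGGAA, 153 bases before the start, as do 12% of windows. The GC box and GCGTG were the motifs that Kdr and Flt1 shared, and Nrp1 and Nrp2 held both as well. Such matches describe the letters and are not evidence of binding.

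Library totals ranged from 13518973 to 16096203 counts, and 9350 to 11803 lines per library had at least 1 count. Replicates differed far beyond counting noise (chi-square over degrees of freedom 477 in brain and 261 in dura mater). Many genes were well counted in 1 replicate and near 0 in the other, as Vegfb below, and the common biological coefficient of variation was 1.39. The 16 pan-endothelial markers, among them Pecam1 and Cdh5, were all counted in every library and held 1.25% to 1.64% of counts. Values below are CPM (counts scaled to 1000000 per library) on library sizes scaled by the trimmed mean of M-values (TMM), with mean ± SD over n = 2.

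**Figure D1:**
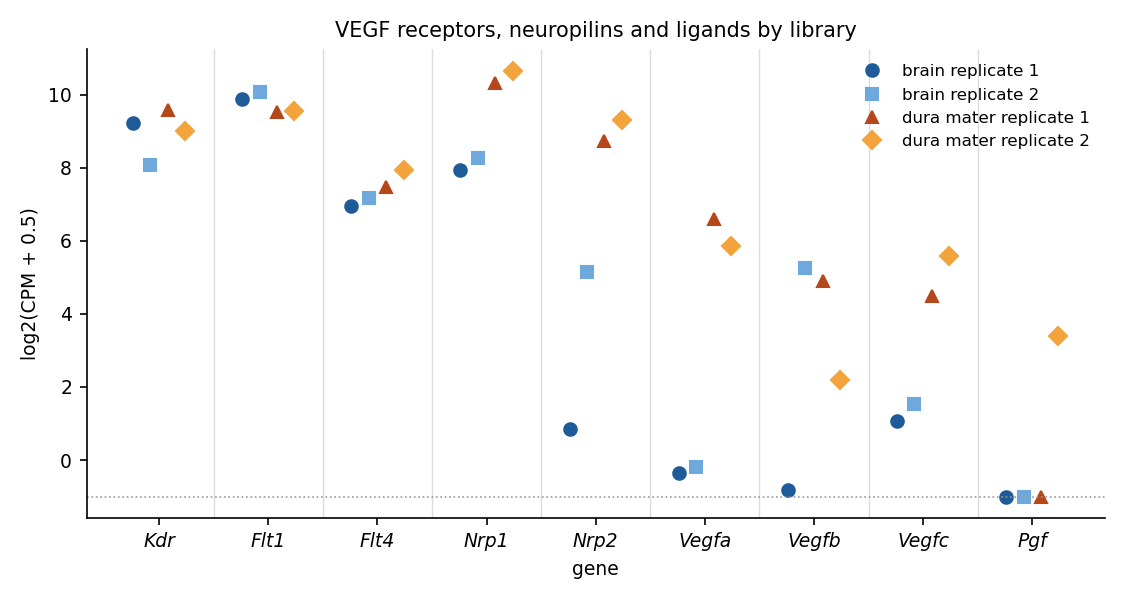
Level of each gene in each of the 4 libraries, as log2(CPM + 0.5), with blue points for brain ECs and orange points for dura mater ECs; the dotted line is 0 counts. Each receptor varies less over the libraries than any other gene shown. Nrp1, Nrp2, Vegfa and Vegfc are higher in both dura mater libraries, and Vegfb is scattered within each tissue.

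The 3 receptors were abundant in ECs of both tissues and none differed past the threshold, while both neuropilins and the ligands Vegfa and Vegfc were higher in each dura mater library than in each brain library. Summed over Kdr, Flt1 and Flt4, the receptors reached 1669 and 1493 CPM in brain against 1688 and 1514 CPM in dura mater, so the groups overlapped. Nrp1 and Nrp2 together went from 248 and 345 CPM in brain to 1715 and 2263 CPM in dura mater. In such bulk libraries, fewer cells of a type and less RNA per cell cannot be told apart.

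By edgeR's quasi-likelihood test with Benjamini-Hochberg adjustment over the 9347 genes tested, 0 of the 8 tested members had an adjusted p under 0.05, where 0.610% of all tested genes did. At an unadjusted p under 0.05 there were 3 members, Nrp1, Nrp2 and Vegfa, beside 10% of all genes. DESeq2 called those same 3 of 9 members, beside 12.2% of the genes to which it gave an adjusted p, and limma-voom called Nrp1 alone of 8, beside 0.856% of genes. The groups did not overlap, with dura mater higher, for 5 of the 8 members (Flt4, Nrp1, Nrp2, Vegfa and Vegfc), beside 26.1% of all tested genes. Dura mater was lower without overlap for 1 member, Flt1, beside 16.9% of genes. The log2 fold change was above 0 for 6 of the 8, and for 49.8% of all tested genes. Vegfa met the filter on low counts through the dura mater libraries alone, so among tested genes it could only be higher there.

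**Figure D2:**
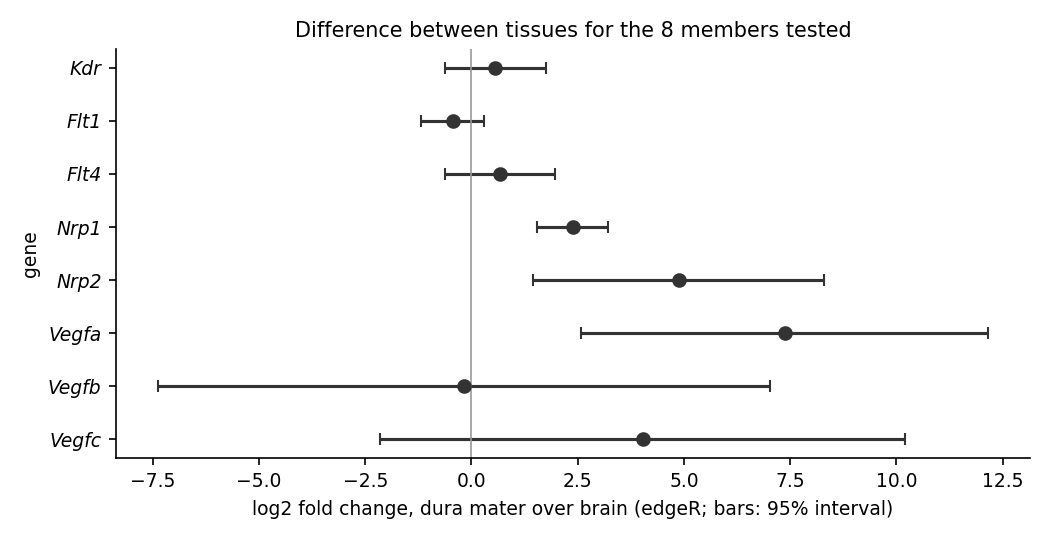
Log2 fold change of dura mater over brain from edgeR for the 8 tested genes, with bars for the 95% interval and a vertical line at no difference. The intervals of Nrp1, Nrp2 and Vegfa lie above 0 before adjustment for the number of genes tested, and those of the 3 receptors, Vegfb and Vegfc cross it.

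Kdr, the main signalling receptor for VEGF-A (ENSMUSG00000062960.10, chromosome 5, 75932827 to 75978458 in GRCm38, minus strand), had 8638 and 3601 counts in brain against 10372 and 8335 in dura mater. Brain replicate 2 stood lowest, and dura mater replicate 2 fell below brain replicate 1, so the tissues overlapped. The mean CPM was 434 ± 229 for brain and 642 ± 186 for dura mater. The log2 fold change of dura mater over brain was 0.56 (SE 0.49, 95% interval -0.63 to 1.75, edgeR adjusted p = 0.932). As a fold the interval runs from 0.648 to 3.37, so these libraries do not tell apart a lower, an equal and a higher level in dura mater within that range. The brain replicates of Kdr differed 2.19-fold and the dura mater replicates 1.51-fold. Without brain replicate 1 the log2 fold change was 1.20, and without brain replicate 2 it was 0.05, neither past the threshold. Without dura mater replicate 1 it was 0.09.

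Flt1, the tight-binding receptor with a weak kinase (ENSMUSG00000029648.13, chromosome 5, 147561604 to 147726011, minus strand), had 13777 and 14248 counts in brain and 9880 and 12363 in dura mater. Both dura mater libraries lay below both brain libraries, also in CPM. Its replicates were the closest of all members, at 1.13-fold apart in brain and 1.03-fold in dura mater. The mean was 1014 ± 89.5 CPM for brain and 747 ± 14.5 CPM for dura mater, a log2 fold change of -0.44 (SE 0.31, interval -1.18 to 0.30, edgeR adjusted p = 0.792). This difference did not pass the threshold in edgeR or in any of its 13 alternatives, in which it ranged from -0.58 to -0.38.

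Flt4, the receptor for VEGF-C (ENSMUSG00000020357.3, chromosome 11, 49609263 to 49652739, plus strand), had 1777 and 1905 counts in brain and 2384 and 4018 in dura mater. The dura mater libraries were the higher ones without overlap. The log2 fold change was 0.67 (SE 0.53, interval -0.62 to 1.96, edgeR adjusted p = 0.888), from 133 ± 15.1 CPM to 212 ± 48.3 CPM. It did not pass the threshold in any of 13 alternatives either.

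The receptor balance was taken within each library as the ratio of counts of Flt1 to Kdr, which needs no scaling between libraries. The ratio was 1.59 and 3.96 in brain against 0.953 and 1.48 in dura mater. Flt1 thus outnumbered Kdr in 3 of the 4 libraries, and the dura mater values were both below the brain values, although dura mater replicate 2 and brain replicate 1 were close. As a share of the counts of both genes, Flt1 took 61.5% (95% Wilson interval 60.8 to 62.1) and 79.8% (79.2 to 80.4) in brain and 48.8% (48.1 to 49.5) and 59.7% (59.1 to 60.4) in dura mater. These intervals cover counting error only, and they are far narrower than the gap between the replicates of a tissue.

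On the log2 scale the Flt1 to Kdr ratio averaged 1.33 ± 0.93 in brain and 0.25 ± 0.45 in dura mater, a difference of -1.08, which is a 2.11-fold lower ratio. The exact two-sided permutation test over the 4 libraries gave p = 0.333, the smallest value that 2 libraries against 2 allow. The brain replicates were 1.31 apart, more than the difference between the tissues. Without brain replicate 2 the difference was -0.42, without brain replicate 1 it was -1.74, and without dura mater replicate 1 it was -0.76. Of the pair, Kdr was the gene that varied: within brain it moved 2.19-fold while Flt1 moved 1.13-fold.

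The labelled kit name stands for sequencing from the 3′ ends of transcripts, for which counts do not grow with length, but the labels do not settle whether 3′ ends or whole transcripts were read, so it is open which scale applies and the balance is also given per kilobase of merged exons. Kdr has 9.03 kb and Flt1 13.5 kb of exons in GENCODE M21. Per kilobase the Flt1 to Kdr ratio was 1.07 and 2.65 in brain and 0.637 and 0.992 in dura mater, so that Kdr was at or above Flt1 in both dura mater libraries and below it in both brain libraries. The difference between tissues on the log2 scale is the same on both scales.

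The ratio of Flt4 to Kdr was 0.206 and 0.529 in brain and 0.230 and 0.482 in dura mater. The tissues overlapped fully, with a log2 difference of 0.01 and an exact permutation p of 1. Leaving out brain replicate 1 turned it to -0.67 and leaving out dura mater replicate 2 to -0.52, while leaving out the other library of each tissue gave 0.69 (brain replicate 2) and 0.55 (dura mater replicate 1). The spread between replicates was 1.36 in brain and 1.07 in dura mater on the same scale.

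**Figure D3:**
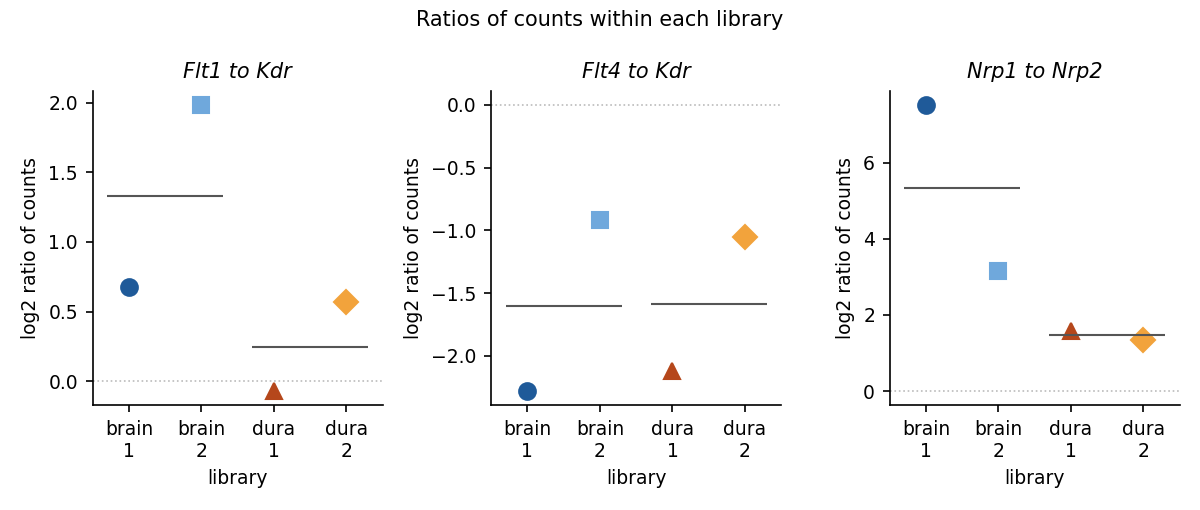
Log2 ratio of counts within each library for Flt1 to Kdr, Flt4 to Kdr and Nrp1 to Nrp2, 1 point per library, with a line at the mean of each tissue and each panel on its own scale. Flt1 to Kdr and Nrp1 to Nrp2 are lower in both dura mater libraries, with wide spread in brain, and Flt4 to Kdr overlaps.

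Nrp1, the co-receptor that presents VEGF-A to VEGFR2 and also binds semaphorins, was the member with the smallest p. On chromosome 8 (128358604 to 128503363, plus strand, ENSMUSG00000025810.9), it had 3576 and 4107 counts in brain and 17261 and 26517 in dura mater. Both dura mater libraries were several times above both brain libraries, and the replicates of each tissue were 1.26-fold apart. Mean levels were 279 ± 45.1 CPM for brain and 1456 ± 238 CPM for dura mater, 5.22-fold higher.

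Nrp1 thus had a log2 fold change of 2.38 (SE 0.35, interval 1.55 to 3.22, edgeR adjusted p = 0.0544), just outside the threshold. It passed in 9 of 13 alternatives, with adjusted p from 6.8e-07 (DESeq2) to 0.0879 (without dura mater replicate 2). With edgeR it passed without brain replicate 1 (adjusted p = 0.00136), without brain replicate 2 (0.000211) and without dura mater replicate 1 (0.0453), fits in which the lone library of a tissue is assumed to vary like the others. The log2 fold change itself stayed between 2.18 and 2.49 in all 13. An exon of the microRNA gene Mir1903 overlaps Nrp1 on the same strand, and no other annotated exon overlaps an exon of any member.

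Nrp2, the neuropilin of veins and lymphatics (ENSMUSG00000025969.15, chromosome 1, 62703285 to 62818695, plus strand), had 19 and 461 counts in brain and 5740 and 10427 in dura mater. Each dura mater library was more than 10 times above each brain library, although the brain replicates were themselves 26.6-fold apart. In CPM it had 1.31 and 34.9 in brain and 428 and 639 in dura mater. On the log2 scale dura mater was 4.87 above brain (SE 1.42, interval 1.44 to 8.31, edgeR adjusted p = 0.344). It passed in 7 of 13 alternatives, DESeq2 (adjusted p = 0.000666) among them. The edgeR fits without brain replicate 1 and without brain replicate 2 are counted in the 7. In these the lone brain library is assumed to vary like the others, which sets aside the spread between the brain replicates. The size depended on the brain library kept, at 3.88 without brain replicate 1 and 8.46 without brain replicate 2.

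Nrp1 counts exceeded Nrp2 counts in all 4 libraries. The ratio of Nrp1 to Nrp2 was 188 and 8.91 in brain and 3.01 and 2.54 in dura mater. The log2 difference was -3.87 (exact permutation p = 0.333, the smallest possible), and the brain replicates were 4.36 apart. Without brain replicate 1 the difference was -1.69 and without brain replicate 2 it was -6.05. The replicates of the dura mater were 0.242 apart, so the balance of the neuropilins varied far less between replicates there than in the brain.

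**Figure D4:**
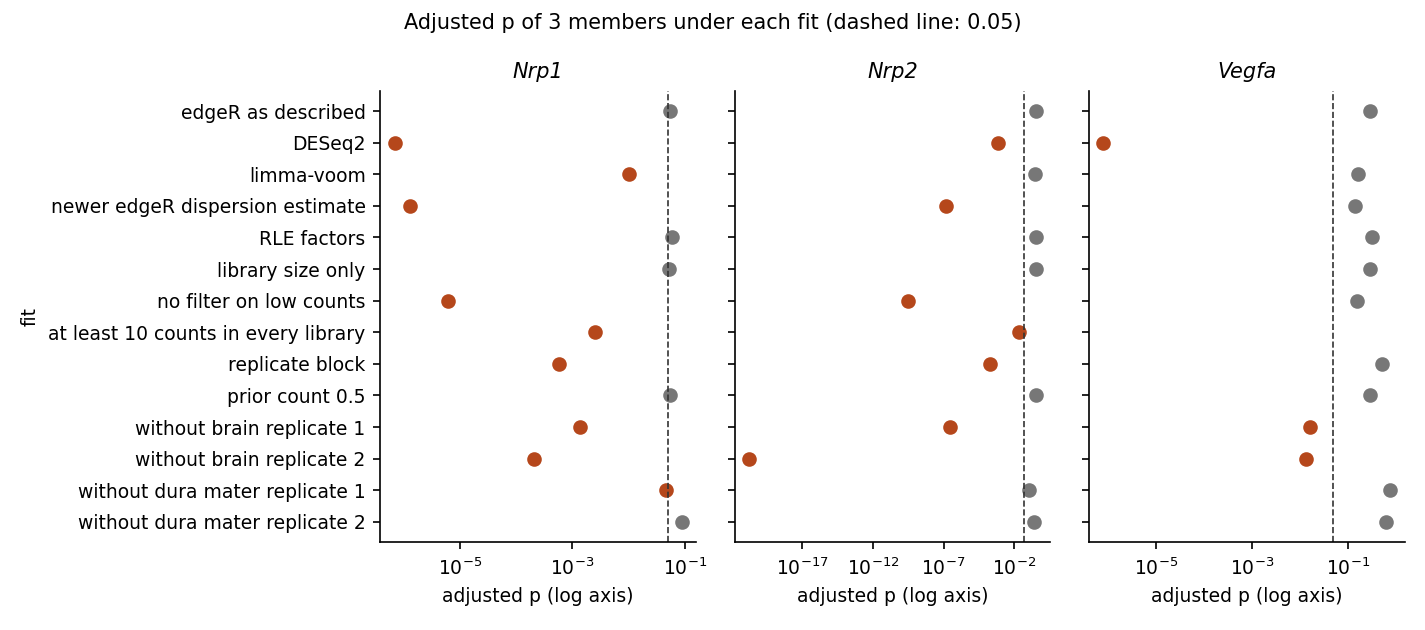
Adjusted p of Nrp1, Nrp2 and Vegfa under edgeR as described and under each other fit, on a log axis whose range differs between panels, with a dashed line at 0.05 and orange points below it. Nrp1 is below the line in 9 of 13 alternatives, Nrp2 in 7 of 13 and Vegfa in 3 of the 12 that tested it.

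Vegfa, the principal ligand of VEGFR2 (ENSMUSG00000023951.17, chromosome 17, 46016993 to 46032369, minus strand), was near the counting floor in brain ECs, with 4 and 5 counts. In dura mater ECs it had 1294 and 942 counts. The dura mater libraries stood at 96.5 and 57.7 CPM against 0.276 and 0.378 CPM in brain. This gave a log2 fold change of 7.37 (SE 1.98, interval 2.58 to 12.2, edgeR adjusted p = 0.291). Because the brain counts are so few, its size depends on the prior count, and it was 7.74 with a prior count of 0.5. DESeq2 gave an adjusted p of 7.87e-07. Vegfa also passed in the edgeR fits without brain replicate 1 and without brain replicate 2, in which the lone brain library is assumed to vary like the others. The other 9 alternatives that tested the gene did not pass.

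Vegfc, the ligand of VEGFR3 (ENSMUSG00000031520.6, chromosome 8, 54077606 to 54187096, plus strand), had 23 and 32 counts in brain and 297 and 774 in dura mater. The dura mater libraries were higher without overlap and were 2.14-fold apart. Its log2 fold change was 4.03 (SE 2.56, interval -2.16 to 10.2, edgeR adjusted p = 0.725), and no alternative passed, the smallest adjusted p being 0.136 with DESeq2. The mean CPM was 2.00 ± 0.589 for brain and 34.8 ± 17.9 for dura mater.

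Vegfb, a ligand of VEGFR1 (ENSMUSG00000024962.13, chromosome 19, 6982473 to 6987651, minus strand), had 1 and 503 counts in brain and 395 and 67 in dura mater. The highest and the lowest library were both from brain, so no direction can be read. The log2 fold change was -0.18 (SE 2.98, interval -7.38 to 7.02, edgeR adjusted p = 1.00). It changed sign with the library left out, from -2.32 without dura mater replicate 1 and -1.19 without brain replicate 1 to 0.60 without dura mater replicate 2 and 6.37 without brain replicate 2.

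Pgf, the other ligand of VEGFR1 (ENSMUSG00000004791.7, chromosome 12, 85166635 to 85177790, minus strand), was counted in dura mater replicate 2 alone, at 163, and was at 0 in the other 3 libraries. It did not pass the filter on low counts and was not tested by edgeR. For counting error only, a count of 0 allows up to 3 counts, which is 0.207 and 0.227 CPM in the brain libraries and 0.224 CPM in dura mater replicate 1. Dura mater replicate 2 was at 9.98 CPM, and no difference between tissues can be read from a single library.

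As a group the 4 ligands held 28 and 540 counts in brain and 1986 and 1946 in dura mater. Their share of all member counts was 0.101% (Wilson interval 0.0697 to 0.146) and 2.17% (2.00 to 2.36) in brain and 4.17% (3.99 to 4.35) and 3.06% (2.93 to 3.20) in dura mater. The ligand share was thus higher in both dura mater libraries, by 2.48 percentage points on average (exact permutation p = 0.333). The 2.17% of brain replicate 2 was nearly all Vegfb, with 503 of 540 counts, and without Vegfb the difference was 3.03 points. Without brain replicate 1 the difference was 1.44 points.

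**Figure D5:**
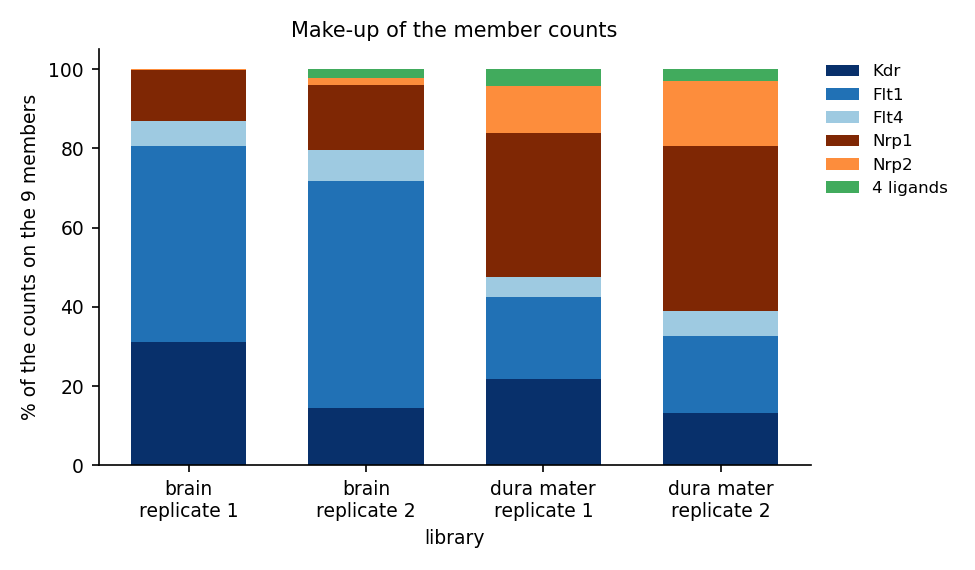
Percent of the counts on the 9 genes that fell on each receptor, each neuropilin and the 4 ligands together, as stacked bars from 0 for each library. Receptors take 87.0% and 79.5% in brain and 47.5% and 38.9% in dura mater, and neuropilins 12.9% and 18.4% against 48.3% and 58.1%.

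The make-up of the counts on the 9 genes differed more between tissues than between replicates. Receptors took 83.2 ± 5.32% of them in brain and 43.2 ± 6.13% in dura mater, and neuropilins 15.7 ± 3.85% and 53.2 ± 6.92% (each exact permutation p = 0.333, the smallest possible). All 9 genes together made up 0.192% and 0.180% of the counts from brain, against 0.352% and 0.395% from dura mater. The added counts fell on Nrp1 and Nrp2 for the greater part.

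The order of the levels is given on both scales. Per kilobase of exons, Flt1 was highest in both brain libraries, at 70.4 and 79.8 CPM per kb, and Nrp1 in both dura mater libraries, at 131.5 and 166 CPM per kb. In brain, Kdr (66.0 and 30.2 CPM per kb) and Nrp1 (25.2 and 31.7 CPM per kb) came next and overlapped over the replicates. In dura mater, Kdr (85.7 and 56.5 CPM per kb) was above Flt1 (54.6 and 56.1 CPM per kb), and Nrp2 (36.1 and 53.9 CPM per kb) was below both, with each neighbour within the other's replicate spread or close to it. In CPM without length the top gene of each library was the same, but in dura mater replicate 2 Flt1 (757 CPM) and Nrp2 (639 CPM) stood above Kdr (511 CPM), while in dura mater replicate 1 Kdr (773 CPM) stood above Flt1 (737 CPM) and Nrp2 (428 CPM). The order of these 3 genes in dura mater ECs therefore depended on the scale and the library. Flt4 stood below Flt1 and Kdr in every library, at 14.9 to 29.9 CPM per kb. Among the ligands of the dura mater ECs, Vegfa (22.5 and 13.5 CPM per kb), Vegfb (18.4 and 2.56 CPM per kb) and Vegfc (9.04 and 19.4 CPM per kb) did not separate.

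The genes nearest to Kdr over the 4 libraries, by the distance between log2 CPM values centred on their mean, were Eif3i, a translation initiation factor subunit (distance 0.118), St13, a co-chaperone of heat shock protein 70 (0.120), and Cox6c, a subunit of cytochrome c oxidase (0.129). Each was lowest in brain replicate 2 and highest in dura mater replicate 1, as Kdr was. Nearest to Vegfa were Tifa, an adaptor of TRAF6 signalling (0.0492), Ralgps2, an exchange factor for Ral (0.111), and Itgb3, the integrin beta3 chain, a known partner of VEGFR2 (0.189). Itgb3 had 727 and 607 counts in dura mater and 0 in either library from brain.

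Further ligands and related semaphorins were unevenly counted. Of 9 listed (Vegfd, which the tables hold as Figf, and semaphorins), 4 were tested and none passed in edgeR. Figf, the second ligand of VEGFR3, had 19 and 248 counts in dura mater and 0 in either library from brain (log2 fold change 5.92 with a prior count of 2, edgeR adjusted p = 0.476). It met the filter on low counts through dura mater alone, so it could only be higher there. Sema3c, a secreted semaphorin that binds neuropilins, had the opposite order, with 3908 and 1786 counts in brain and 4 and 134 in dura mater (log2 fold change -5.52, SE 1.62, adjusted p = 0.347). Sema3f, another secreted semaphorin, had 578 and 65 counts in brain and 777 and 620 in dura mater (adjusted p = 1.00). Sema6d, a membrane-bound semaphorin, had 125 and 0 counts in brain and 483 and 695 in dura mater (adjusted p = 0.966).

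Of 12 genes that process VEGF-C or restrain VEGF, 6 were tested, none passed, and 4 had a log2 fold change above 0 (median 0.52). Adamts1, a protease that binds VEGF-A, had 3377 and 1534 counts in brain and 20015 and 15576 in dura mater (log2 fold change 2.81, SE 0.49, edgeR adjusted p = 0.0942). Ctgf, a matricellular protein that binds VEGF-A, had 7057 and 2564 against 14294 and 26101 counts (adjusted p = 0.286). Ctsd, a lysosomal protease, had 6126 and 4745 against 2493 and 5974 counts (adjusted p = 0.960). Ccbe1 and Adamts3, which activate VEGF-C, had 0 counts in every library.

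Among proteins that bind or traffic the receptors, no gene passed the threshold. Of 31 listed, 27 were tested by edgeR and 17 had a log2 fold change above 0, beside 49.8% of all tested genes. The median of the 27 was 0.75, where that of all tested genes was -0.007. Itgb3 and Aplnr, at 0 counts in both brain libraries, met the filter on low counts through dura mater alone. They could only be higher there, which raises the number above 0 and the median. Ptprb, the phosphatase that restrains VEGFR2 and Tie2, was the most counted, with 20869 and 15557 counts in brain and 21767 and 26218 in dura mater (log2 fold change 0.30, SE 0.29, adjusted p = 0.952). Hspg2, the matrix proteoglycan perlecan, was higher without overlap (1.82, SE 0.53, adjusted p = 0.340), as was Gipc1, which binds the tail of Nrp1 and had 1 and 28 counts in brain and 1925 and 547 in dura mater (6.17, SE 2.29, adjusted p = 0.466).

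Downstream of the receptors the same test called none of 18 tested adaptors and proximal kinases (12 higher, median log2 fold change 0.21) and none of 36 tested genes of the ERK, AKT, p38 and calcineurin branches (15 higher, median -0.13). Fyn (log2 fold change 1.47, adjusted p = 0.584), Sos1 (2.05, adjusted p = 0.685) and Ptk2b (9.38, adjusted p = 0.102) had the smallest p of the adaptors, and Ptk2b, a kinase of the focal adhesion family, had 1 and 0 counts in brain and 1506 and 1945 in dura mater. In the branches Hspb1 had a log2 fold change of -0.54 (adjusted p = 0.473) and Pla2g4a one of 7.20 (adjusted p = 0.430). Ptk2b and Pla2g4a met the filter on low counts through dura mater alone, so they could only be higher there. The most counted adaptor, Rasip1, had a log2 fold change of 0.21.

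Genes known to rise when VEGF acts on ECs were mostly higher in the dura mater libraries. Of 34 listed, 29 were tested and 24 had a log2 fold change above 0 (median 2.81), 2 passed and 0 passed downwards. Of all tested genes, 49.8% were above 0 and 0.610% passed in either direction. Of the 34, 12 had at most 7 counts in both brain libraries. Those of them that were tested, Nr4a3 included, met the filter on low counts through dura mater alone. They could only be higher there, which raises the number above 0 and the median. Egr1, an immediate early transcription factor, rose from 1914 and 3071 counts in brain to 42616 and 58892 in dura mater (log2 fold change 4.22, SE 0.40, edgeR adjusted p = 0.0248). Icam1, a leukocyte adhesion molecule, rose from 707 and 877 to 25322 and 15998 counts (4.64, SE 0.50, adjusted p = 0.0248). Nr4a3, a nuclear receptor of the same early class as Egr1, had 3610 and 1483 counts in dura mater and 0 in either library from brain (adjusted p = 0.0544). Dll4, the Notch ligand that VEGF induces in tip cells, had 4321 and 1562 against 3491 and 2482 counts (-0.01, adjusted p = 1.00), and Cd34, the most counted of the list, had a log2 fold change of -0.07. These genes answer to many stimuli besides VEGF.

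Hypoxia-related genes, which include known inducers of Vegfa and Flt1, showed no common direction, with 13 of 27 tested above 0 (median log2 fold change -0.13) and none passing. Epas1 (HIF-2 alpha) was the most counted, at 57753 and 54009 counts in brain and 37374 and 46019 in dura mater (-0.53, SE 0.24, adjusted p = 0.487). Ndrg1 (-1.63, adjusted p = 0.160), Bhlhe40 (2.25, adjusted p = 0.226) and Pfkfb3 (higher in both dura mater libraries, adjusted p = 0.451) had the smallest p. Eno1, a glycolytic enzyme that nearly all cells use, is listed at 0 in every library, so a 0 in these tables need not mean that a gene was silent.

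Markers of other vessels and cells moved with the tissue, and their part in the values of the VEGF genes was not tested. Of 10 lymphatic markers, 5 were at 0 in both brain libraries and counted in both dura mater libraries: Prox1 (492 and 125 counts), Lyve1 (911 and 1776), Ccl21a (883 and 3378), Itga9 (1690 and 1368) and Mmrn1 (1132 and 690). Tbx1 (1912 and 1664 counts in brain, 2 and 338 in dura mater) and Maf (903 and 738, 4 and 469) of the same list were lower in dura mater without overlap. None of the 8 tested passed, 5 were higher and 3 lower, and Fxyd6, the most counted, overlapped. The 5 higher ones met the filter on low counts through dura mater alone, so they could only be higher there. The list summed to 0.0195% and 0.0320% of counts in brain and 0.0433% and 0.0631% in dura mater. Flt4, Nrp2 and Vegfc were higher in the same libraries as 5 of the 10 markers, and lower in the libraries where Tbx1 and Maf were higher. The same holds for the 26.1% of all tested genes that were higher in dura mater without overlap. All 8 fenestrated and venous markers were higher in dura mater, beside 49.8% of all tested genes. Of the 8, 3 passed, Selp, Plvap and Lrg1 (edgeR adjusted p = 0.0232, 0.0248 and 0.0232), beside 0.610% of all tested genes in either direction. Selp (0 counts in both brain libraries) and Plvap (0 and 8) met the filter on low counts through dura mater alone. These genes could only be higher there. The list summed to 0.132% and 0.0882% of counts in brain and 0.761% and 0.718% in dura mater. Of the pan-endothelial markers Cldn5, a tight junction gene, was lower in dura mater (log2 fold change -2.52, adjusted p = 0.0388), Esam was the most counted, and Vwf and Clec14a did not pass (adjusted p = 0.127 and 0.136).

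Markers of cells outside the vessel lining, some of which make VEGF ligands, were compared in the same way. Fibroblast and meningeal markers summed to 0.255% and 0.219% of counts in brain and 1.13% and 1.15% in dura mater. Of 7 tested, 6 were higher, beside 49.8% of all tested genes. With edgeR, 1 passed, Mgp (log2 fold change 2.20, adjusted p = 0.0248), beside 0.610% of all tested genes. Slc47a1, at 0 counts in both brain libraries, met the filter on low counts through dura mater alone and could only be higher there. Mgp was also well counted in brain, at 36701 and 29352. Mgp alone held 96.5% to 99.7% of the list's counts, and without it the list summed to 0.000878% and 0.00596% in brain and 0.0395% and 0.0381% in dura mater. Pdgfra, Lum and Fbln1 had at most 4 counts in any library. Dcn had 16 and 15 counts in brain and 1184 and 1664 in dura mater, and Col1a2 had 4 and 31 against 1135 and 1913. Of 10 osteoblast markers 5 were at 0 in every library, Sp7 and Bglap among them, and Alpl, the 1 tested, overlapped. Macrophage and microglia markers took 0.00516% to 0.0133% of a library, with overlap between the tissues in the sum. Of the 5 tested, Cd68 (4 and 3 counts in brain, 550 and 441 in dura mater, adjusted p = 0.466) and Fcer1g (6 and 17, 610 and 173, adjusted p = 0.678) were higher in dura mater without overlap. These are 2 of 5, beside 26.1% of all tested genes. Cd68 met the filter on low counts through dura mater alone, so it could only be higher there. C1qc, the most counted, had 0 and 797 counts in brain and 291 and 2 in dura mater, and Csf1r had 4 and 646 against 28 and 9. Astrocyte markers took 0.00829% and 0.0286% in brain and 0.0631% and 0.0231% in dura mater, mural markers 0.0711% to 0.119%, neuron markers 0.0144% to 0.0250%, oligodendrocyte markers 0.000514% to 0.0162% and other leukocyte markers at most 0.00107%, with none passing in these lists. Erythroid genes went the other way, with 5 of 7 tested passing as lower in dura mater (Hba-a1, Hbb-bs, Hbb-b1, Hbb-bt and Hbb-b2, globin genes with near-identical copies among which reads may be split), at 2.66% and 3.63% of counts in brain and 0.218% and 0.114% in dura mater.

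Genes named by rule from the remaining lists are given as counts in brain and then in dura mater. Of the mural markers, Acta2, the most counted, had 4979 and 10644 against 7580 and 3663, Kcnj8 had 0 and 0 against 468 and 410, Cspg4 0 and 1 against 263 and 65, and Notch3 5 and 0 against 99 and 254. Des went the other way without overlap, at 1056 and 1350 against 412 and 284. Of the 11 mural markers tested, 8 were higher in dura mater and 3 lower. Without overlap, 4 were higher and 1 lower, beside 26.1% and 16.9% of all tested genes. Of the astrocyte markers, Fgfr3, the most counted, overlapped at 440 and 2885 against 2663 and 793, as did S100b at 9 and 949 against 0 and 294. Gja1 (743 and 103 against 3641 and 2460), Slc1a3 (1 and 1 against 915 and 74) and Slc1a2 (1 and 0 against 863 and 87) were higher in dura mater without overlap. That is 3 of 5 tested astrocyte markers, beside 26.1% of all tested genes. Stmn2, the most counted neuron marker, had 2042 and 2239 against 1887 and 2473, with Gad2 at 0 and 0 against 166 and 96, Tubb3 at 10 and 2 against 111 and 77, and Eno2 at 30 and 4 against 456 and 4. Mbp, the most counted oligodendrocyte marker, had 1476 and 4 against 1027 and 6, with Cnp at 2 and 65 against 179 and 552. Of the leukocyte markers Cpa3 had 0 and 3 against 0 and 139, S100a9 6 and 14 against 15 and 8, and S100a8 5 and 25 against 18 and 16. Kcnj8, Cspg4, Notch3, Slc1a3, Slc1a2, Gad2 and Tubb3 met the filter on low counts through dura mater alone, so they could only be higher there. The part of these cells in the values of the VEGF genes was not tested.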

How the data were processed

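RNA of sorted ECs was sequenced from 2 brain and 2 dura mater libraries. The deposited tables hold raw read counts per gene symbol, which the authors made from alignments to mm10. The submitters' processing notes name Bowtie2 and edgeR, and the study's methods name TopHat and cufflinks. The counting step, the annotation and the use of strand are not given in the sources used here. Groups came from the tissue label.

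Counts were fitted in R 4.3.3 by edgeR 4.0.16 (quasi-likelihood F test) with its older dispersion estimate, TMM factors, filterByExpr and tissue as the only term, two-sided, with Benjamini-Hochberg adjustment over 9347 genes and a threshold of 0.05. A positive log2 fold change means higher in dura mater, and the prior count was 2. This stands in for cufflinks, which needs alignments. DESeq2 1.42.0, limma-voom (limma 3.58.1), a newer dispersion estimate, other scalings and filters, a replicate block and the removal of each library were alternatives. The scripts were tested on simulated data. Where every gene was given the common biological coefficient of variation of these libraries, edgeR and limma-voom made no calls and most DESeq2 calls were false. Some genes here varied far less between replicates, Flt1 and Nrp1 among them, so the simulation does not rate the calls made on these data. Ratios used 0.5 added to each count and an exact permutation test over libraries, and shares have 95% Wilson intervals from scipy 1.17.1.

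The genes, the 19 lists and the tests were chosen with earlier results of these data known. Named beside the 9 genes are list members with an adjusted p under 0.05 (at most 6 a list), or otherwise those with the smallest p up to 3, the most counted gene of each list and the 3 genes nearest to Kdr and to Vegfa. Some further list genes were named after their values were seen, and 2 genes that the rule names are not reported here. Exon lengths are from GENCODE M21 (GRCm38). Upstream sequences are from RefSeq, which matched all 9 genes.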

Additional observations from a re-analysis of the deposited data

How the results depend on the processing

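The 2 libraries per tissue limit every result, and no permutation over them can give a p below 0.333. Of 102 refitted log2 fold changes of the 8 tested genes, 79 kept their direction and their side of the threshold, 19 (of Nrp1, Nrp2 and Vegfa) kept the direction and newly passed, and 4, all of Vegfb, changed sign. Kdr, Flt1, Flt4 and Vegfc kept direction and side in all alternatives. Vegfb was 2.33 with limma-voom, 1.91 with the replicate block, and between -2.32 and 6.37 with a library left out. The number of members called was 0 in the edgeR fit described, 3 with DESeq2, 1 with limma-voom, 2 each with the newer dispersion estimate, without a filter, with at least 10 counts in every library and with the replicate block, and between 0 and 3 with a library left out. Over all genes, 57 calls became 1259 with DESeq2, 305 with the newer dispersion estimate, 326 without a filter, 141 with at least 10 counts in every library, and 80 to 740 with a library left out, where fits without a brain library tested 11591 (without replicate 1) and 11596 genes with median log2 fold changes of 1.03 and 0.95. RLE factors moved the median log2 fold change of tested genes to -0.098. The Flt4 to Kdr difference ran from -0.67 to 0.69 with a library left out. The other ratios and the ligand share kept their direction. The cause of these changes was not tested.

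Replicate numbers are shared between tissues, but nothing ties them to the same mice, and deviations of same-numbered libraries had a correlation of -0.0171 across genes. With the replicate block 224 genes passed, Nrp1 and Nrp2 among them. On the log2 scale, the differences between libraries numbered 1 and between those numbered 2 were -0.744 and -1.415 for Flt1 to Kdr. They were 0.160 and -0.134 for Flt4 to Kdr, and -5.931 and -1.807 for Nrp1 to Nrp2. Their means equal the differences between tissue means by arithmetic, so pairing by number cannot move those.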

Other observations

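Further ratios within the libraries were chosen after their values were seen and are given as values. Nrp1, the co-receptor, to Kdr, its receptor partner, was 0.414 and 1.14 by counts in brain against 1.66 and 3.18 in dura mater, so the dura mater libraries were higher without overlap. Flt4 to Flt1 was 0.129 and 0.134 in brain and 0.241 and 0.325 in dura mater, with brain replicates only 0.0518 apart on the log2 scale against a difference of 1.09 between tissues. Vegfc to Vegfa was 5.75 and 6.40 in brain, from 23 against 4 counts and 32 against 5, and 0.230 and 0.822 in dura mater. The share of Vegfc in the counts of both was 85.2% (95% Wilson interval 67.5 to 94.1) and 86.5% (72.0 to 94.1) in brain and 18.7% (16.8 to 20.7) and 45.1% (42.8 to 47.5) in dura mater. By counts, Vegfc thus led Vegfa in brain ECs at very low levels, and Vegfa led in dura mater ECs. Per kilobase of exons the Vegfc to Vegfa ratio was 0.402 and 1.44 in dura mater, so the lead there depended on the scale and the library. For each ratio the exact permutation test gave p = 0.333, the smallest that these libraries allow.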
